A study of Mus musculus with 6 samples.

Results

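This account covers the V segments of the T cell receptor alpha chain in mouse spleen CD4 T cells. Members were all rows of the deposited count table whose Ensembl identifier carries a symbol starting with Trav in GENCODE release M21 on GRCm38. There were 128 such rows of 47729 in the table, and they are all 128 Trav rows of that annotation. Of these, 108 are annotated as functional V genes and 20 as pseudogenes.

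RNA of sorted spleen cells was sequenced in 6 libraries, 2 for each of 3 groups. OFF cells came from RBPJind mice given doxycycline (Dox) in the water for 3 weeks and then none for 1 week while the cells matured in the periphery, and are labelled Notch unresponsive. ON cells came from RBPJind mice kept on Dox for 4 weeks, and are labelled Notch responsive. OFF and ON cells were sorted as immature naive cells (CD3+CD4+CD25-CD45RBint). WT cells were mature naive cells (CD3+CD4+CD25-CD45RBhi) of wild type mice. Dox is given as the treatment of all 6 samples, WT included, but its duration is not given for WT. OFF and ON therefore share the RBPJind genotype and the CD45RBint gate, and both differ from WT in genotype and gate together. Age, promoter and cell type of induction are not labelled. Nor is it labelled whether a group's samples were from different mice, so a p-value here covers the spread between samples, which may be technical.

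RBPJ is the DNA-binding partner of Notch receptors. Rbpj was counted at 29.8 and 31.7 CPM (counts scaled to library size by TMM) in OFF, 98.2 and 79.6 CPM in ON, and 36.1 and 35.3 CPM in WT; a processed pseudogene, Rbpj-ps3, is near-identical to it, so these levels are uncertain. Counts assigned to genes ran over the 6 libraries between 17025551 and 19319183. The T cell markers Cd3e and Cd4 were high in all 6 libraries, at 307 to 427 CPM and 604 to 702 CPM. Cd8a was at 3.06 and 4.09 CPM in OFF, 5.72 and 5.85 CPM in ON, and 0.419 and 1.28 CPM in WT.

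An alpha chain is made when a developing T cell in the thymus joins a V segment to a J segment and the spliced transcript links that VJ exon to the constant region Trac. The V segments lie upstream of the J segments, and the first joins tend to use V segments near the J cluster; further joins on the same allele reach V segments farther upstream and J segments farther downstream until the cell is selected. The V segment encodes the leader, both of the first complementarity-determining loops and the start of the third, so V usage is a feature of the receptor repertoire. In mice the V cluster holds duplicated stretches, and the letters d and n in a symbol mark copies of a segment. A suffix of -dv marks a V segment that can also be joined in delta chains.

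All 128 rows lie on the plus strand of chromosome 14 in GRCm38, within chr14:52427928-53977678. The first J segment of the annotation, Traj61, lies at chr14:54155005-54155076, and Trac lies at chr14:54220521-54224206. Most V rows have 2 exons in the annotation, a leader exon and a V exon (119 rows), and 9 have 1. The sequences below are those of the 3 segments that passed the test between ON and WT and of Trav5-4, which took the largest share of any segment in 1 library. They are read from the GENCODE M21 transcripts, 5′ to 3′, from coding base 121 to the end of the germline V segment, within the V exon. Capitals mark the stretch from the last in-frame cysteine codon, where the third loop (CDR3) begins, to the end of the segment. Trav19 lies at chr14:53845322-53845827, Trav4-4-dv10 at chr14:53683677-53684177, Trav3-3 at chr14:53666005-53666506 and Trav5-4 at chr14:53704007-53704514.
Trav19: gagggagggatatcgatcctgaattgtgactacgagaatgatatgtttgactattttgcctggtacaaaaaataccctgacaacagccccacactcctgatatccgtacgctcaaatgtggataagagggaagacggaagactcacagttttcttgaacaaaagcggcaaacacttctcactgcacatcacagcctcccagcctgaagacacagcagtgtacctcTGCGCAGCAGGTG
Trav4-4-dv10: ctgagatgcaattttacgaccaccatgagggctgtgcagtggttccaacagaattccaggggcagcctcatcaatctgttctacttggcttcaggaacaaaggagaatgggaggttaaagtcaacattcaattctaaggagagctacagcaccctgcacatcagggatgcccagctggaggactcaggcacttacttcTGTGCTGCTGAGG
Trav3-3: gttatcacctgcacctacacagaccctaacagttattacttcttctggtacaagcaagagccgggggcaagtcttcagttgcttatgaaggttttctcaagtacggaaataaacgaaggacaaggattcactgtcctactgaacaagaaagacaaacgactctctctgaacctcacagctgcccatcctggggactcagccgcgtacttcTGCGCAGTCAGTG
Trav5-4: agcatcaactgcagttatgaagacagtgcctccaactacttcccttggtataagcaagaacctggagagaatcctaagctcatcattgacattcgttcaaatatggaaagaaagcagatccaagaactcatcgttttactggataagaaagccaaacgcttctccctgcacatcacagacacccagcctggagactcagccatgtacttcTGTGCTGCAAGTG

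Many V rows have copies that differ by a few bases, or by none, and the sources used here do not give how reads of such copies were assigned. Trav4d-4 (chr14:52990889-52991389) is shown because it is identical over its 331 coding bases to Trav4n-4 and differs from Trav4-4-dv10 at 8 positions; capitals mark the bases that differ. Both are printed from coding base 121. Counted from 1 at the start codon, with the base of Trav4-4-dv10 first, these are G138T, A167G, C169A, T235C, A244G, C249T, A250G and A262C.
Trav4d-4: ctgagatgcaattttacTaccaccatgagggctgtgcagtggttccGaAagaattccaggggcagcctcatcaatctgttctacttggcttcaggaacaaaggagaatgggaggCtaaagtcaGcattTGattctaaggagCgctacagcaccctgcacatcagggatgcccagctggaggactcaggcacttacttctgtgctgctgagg
Over 6 libraries Trav4-4-dv10 had 761 counts, Trav4d-4 had 0 and Trav4n-4 had 1. Trav5d-4 and Trav5n-4 are identical to each other over 343 coding bases and differ from Trav5-4 at 6; they had 2 counts and 1 count, against 816 for Trav5-4. Trav3d-3 and Trav3n-3 are likewise identical to each other and differ from Trav3-3 at 4 positions; they had 42 counts and 1 count, against 644 for Trav3-3.

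Alpha V segments made up a small part of the RNA and were a larger part in both RBPJind groups than in WT. Trav rows took 2655 and 2736 counts in OFF, 2916 and 3258 in ON, and 2200 and 2173 in WT. As CPM of all gene counts these were 147 and 159 in OFF, 154 and 169 in ON, and 128 and 128 in WT. Both WT libraries were below all 4 others, while OFF and ON overlapped. The mean share of gene counts was 0.0153% ± 0.000843 in OFF, 0.0161% ± 0.00106 in ON and 0.0128% ± 6.03e-05 in WT (SD, n = 2 each). These shares give a ratio of 1.26 for ON to WT, 1.20 for OFF to WT and 0.95 for OFF to ON. An exact two-sided permutation test of 2 against 2 libraries cannot go below a p of 0.33, so single values per library carry no test that could pass. In sorted bulk RNA, a change in the number of cells that use a segment and a change in its RNA per cell cannot be told apart.

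The comparisons of OFF with ON and with WT depended on the denominator. As a share of all alpha chain counts (V, J and Trac rows), Trav rows were 16.2% and 18.9% in OFF, 20.4% and 23.0% in ON, and 17.3% and 15.5% in WT. On this scale both ON libraries were above both WT libraries and both OFF libraries, and OFF overlapped WT. Trac, the constant region that every alpha transcript ends in, was at 312 and 419 CPM in OFF, 289 and 226 CPM in ON, and 285 and 258 CPM in WT, and was not called in any comparison (edgeR quasi-likelihood test, adjusted p of 0.156 for OFF against ON, 0.798 for ON against WT and 0.172 for OFF against WT).

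The counts were spread over many segments. Of the 128 rows, 105 had a count in at least 1 library, 71 had a count in all 6, 16 had a count in 1 library alone, and 23 had none. A total of 52 rows had 10 counts or fewer over all 6 libraries. With 2173 to 3258 Trav counts in a library, a single count is worth 0.0307% to 0.0460% of the Trav counts, and a count of 0 allows a share of up to 0.0921% to 0.138% (3 counts), for counting error only. The 35 rows with a mean share of at least 1% together held 83.5% and 85.1% of the Trav counts in OFF, 85.2% and 87.1% in ON, and 81.0% and 81.9% in WT.

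**Figure D1:**
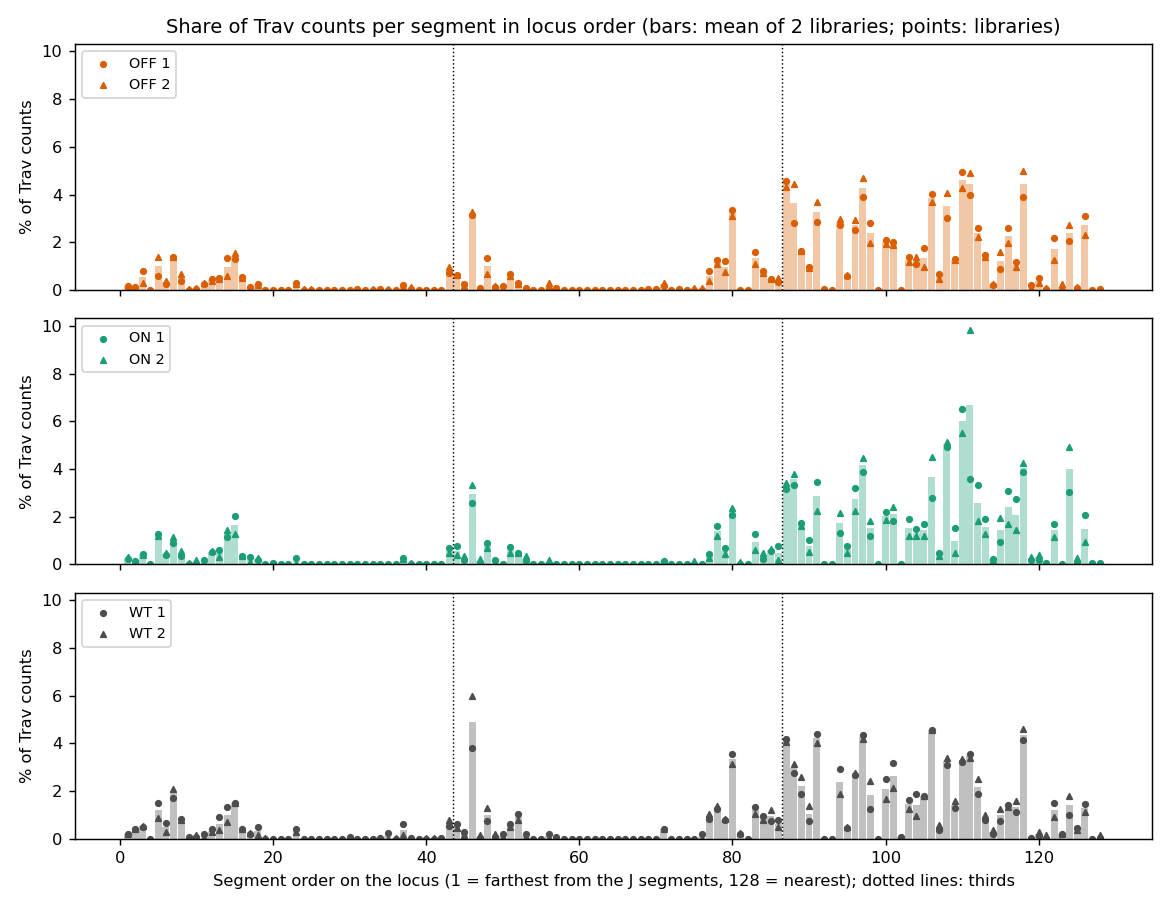
Share of all Trav counts (%) of each of the 128 rows in locus order, with OFF above ON above WT; bars are the mean of 2 libraries and points are the libraries. Counts gather in the rows nearest the J segments and at a few rows farther away, and Trav5-4 in ON 2 stands highest, at 9.82%.

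The 10 largest mean shares over the 6 libraries belonged to Trav5-4 (4.87%), Trav4-4-dv10 (4.63%), Trav14-3 (4.29%), Trav14-1 (4.25%), Trav14-2 (4.02%), Trav7-4 (3.94%), Trav3-3 (3.94%), Trav14d-3-dv8 (3.69%), Trav10 (3.45%) and Trav8-1 (3.39%). These are shares of counts and not levels per length. Rows with a count have 155 to 595 exonic bases (median 371), and 9 of the 10 also stand among the 10 highest per exonic base; Trav14d-3-dv8 ranks 12 on that scale. The 10 largest shares within each library summed to 38.0% and 42.3% in OFF, 39.3% and 49.1% in ON, and 39.0% and 40.7% in WT. Neighbours in this order differ by less than their spread between libraries, so the order within the 10 is not firm. The largest mean share was that of Trav4-4-dv10 in OFF, Trav5-4 in ON and Trav14d-3-dv8 in WT. The largest segment also differed between the 2 libraries of each group, so these are not firm differences between groups. It was Trav4-4-dv10 in OFF 1 and ON 1, Trav14-3 in OFF 2, Trav5-4 in ON 2, Trav14-2 in WT 1 and Trav14d-3-dv8 in WT 2. Leaving out Trav5-4, a choice made after seeing the data, gave 38.4% and 42.6% in OFF, 40.2% and 46.2% in ON, and 39.9% and 41.8% in WT for the 10 largest shares.

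Trav5-4 was the row whose share differed most between libraries of the same group. It was counted 106 and 134 times in OFF, 104 and 320 times in ON, and 78 and 74 times in WT. Its share was 3.99% and 4.90% in OFF, 3.57% and 9.82% in ON, and 3.55% and 3.41% in WT. The 95% Clopper-Pearson interval in ON 2 ran from 8.82% to 10.9%, and that in ON 1 from 2.92% to 4.31%. The other 5 libraries lay between 3.41% and 4.90%, so ON 2 stood apart on this segment. Over the Trav rows, the chi-square between both libraries of a group, divided by its degrees of freedom so that 1 is sampling noise, was 1.79 in OFF (63 rows), 4.95 in ON (65 rows) and 1.85 in WT (61 rows). Without Trav5-4 it was 1.77 in OFF, 3.52 in ON and 1.88 in WT. Taken over all genes that met the same minimum count, it was 17.8 in OFF (15804 genes), 56.5 in ON (18536) and 8.17 in WT (19262). The ON libraries thus differed most over the whole table too, and not only on V segments.

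The Trav14 subfamily was the largest. Its 9 rows took 18.5% and 19.8% of the Trav counts in OFF, 15.2% and 18.9% in ON, and 20.7% and 22.5% in WT. Trav14-1, whose 75-base windows are all found in no other Trav transcript, was counted 104 and 128 times in OFF, 113 and 145 times in ON, and 96 and 91 times in WT, which are 3.92% and 4.68%, 3.88% and 4.45%, and 4.36% and 4.19% of the Trav counts. Its share overlapped between all 3 groups. Trav14-3 took 104 and 136 counts in OFF, 113 and 138 in ON, and 91 and 100 in WT. Trav14-2 took 107 and 101 counts in OFF, 81 and 147 in ON, and 100 and 99 in WT. For both, the share of Trav counts overlapped between OFF and ON.

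The d and n copies of Trav14-3 were well covered in their own right. Trav14d-3-dv8 had 84 and 89 counts in OFF, 75 and 109 in ON, and 84 and 130 in WT. Trav14n-3 had 89 and 85 counts in OFF, 60 and 77 in ON, and 78 and 68 in WT. Each differs from Trav14-3 at 10 of 361 coding bases and from the other at 12, and 81.2%, 61.7% and 56.1% of the 75-base windows of Trav14d-3-dv8, Trav14n-3 and Trav14-3 are found in no other Trav transcript. By contrast, Trav14d-1 and Trav14n-1, which hold no such window, had 2 and 6 counts in all, and Trav14d-2 and Trav14n-2 had 6 and 0.

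Among the remaining large segments, Trav7-4 was counted 121 and 118 times in OFF, 92 and 111 times in ON, and 92 and 88 times in WT. Trav10 was counted 76 and 101 times in OFF, 101 and 73 times in ON, and 97 and 87 times in WT. Trav8-1 was counted 75 and 122 times in OFF, 97 and 124 times in ON, and 61 and 68 times in WT. None of these 3 passed the test in any comparison. The Trav7 subfamily, with 13 rows, was the next largest, at 13.7% and 12.3% of the Trav counts in OFF, 10.4% and 11.6% in ON, and 12.9% and 12.5% in WT. By mean share over the 6 libraries, Trav4 (8.14%), Trav13 (7.49%), Trav8 (7.46%), Trav6 (7.04%), Trav9 (6.05%) and Trav5 (6.05%) came next. Trav2, with 1 row and outside the naming rule given below, had 4 and 4 counts in OFF, 4 and 5 in ON, and 9 and 9 in WT. With 35 counts in all, the 95% Clopper-Pearson intervals of its share overlap between all 6 libraries. They ran from 0.190% to 0.785% in WT 2 and from 0.0374% to 0.351% in ON 1.

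The spread over segments was summarised as the effective number of segments, the exponential of the Shannon entropy of the shares. It was 49.3 and 47.3 in OFF, 48.0 and 42.6 in ON, and 52.1 and 49.5 in WT. Both WT libraries were above all others, by a small margin over OFF, and OFF and ON overlapped. Without Trav5-4 the values were 48.7 and 47.0 in OFF, 47.2 and 44.9 in ON, and 51.4 and 48.7 in WT, so that WT 2 and OFF 1 have the same value at this rounding. Counted over the 23 subfamilies, the order turned round: the effective number was 13.6 and 13.4 in OFF, 14.2 and 13.2 in ON, and 13.0 and 12.8 in WT. The direction of this measure therefore depends on whether copies are kept apart.

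Position along the locus separated the 3 groups, with the segments nearest the J cluster taking the largest share in ON and the smallest in WT. Rows were put in order of their start and divided into 3 bins of 43, 43 and 42 rows, called J-distal, middle and J-proximal. The J-proximal bin, from Trav7-4 to Trav23, held 72.9% and 74.8% of the Trav counts in OFF, 75.6% and 77.1% in ON, and 67.7% and 69.2% in WT. With all rows kept, no 2 groups overlapped. OFF and ON did overlap under some of the ways of leaving rows out given below, where WT stayed apart from both. The means were 73.8% ± 1.32 in OFF, 76.3% ± 1.07 in ON and 68.5% ± 1.05 in WT (SD, n = 2 each). The middle bin held 17.1% and 14.8% in OFF, 13.96% and 13.2% in ON, and 18.8% and 20.3% in WT. The J-distal bin held 10.02% and 10.4% in OFF, 10.5% and 9.70% in ON, and 13.5% and 10.4% in WT, and WT 2 lay between the RBPJind libraries.

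The separation was wider over 5 bins. The last of 5 bins, the 25 rows from Trav12-3 to Trav23, held 41.9% and 41.6% of the Trav counts in OFF, 46.5% and 48.8% in ON, and 34.7% and 37.2% in WT. These ranges did not overlap, with ON highest and WT lowest. Without Trav5-4, which lies in this bin, the bin held 39.5% and 38.6% in OFF, 44.6% and 43.3% in ON, and 32.3% and 35.02% in WT, and the ranges still did not overlap. The 4th bin, of 25 rows, held 38.7% and 39.9% in OFF, 34.7% and 33.1% in ON, and 41.3% and 39.7% in WT, so that ON was lowest and OFF and WT overlapped. Bin 3, made of 26 n copies, held 2.23% to 3.09% in the 6 libraries, and 13 of its rows had no count.

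**Figure D2:**
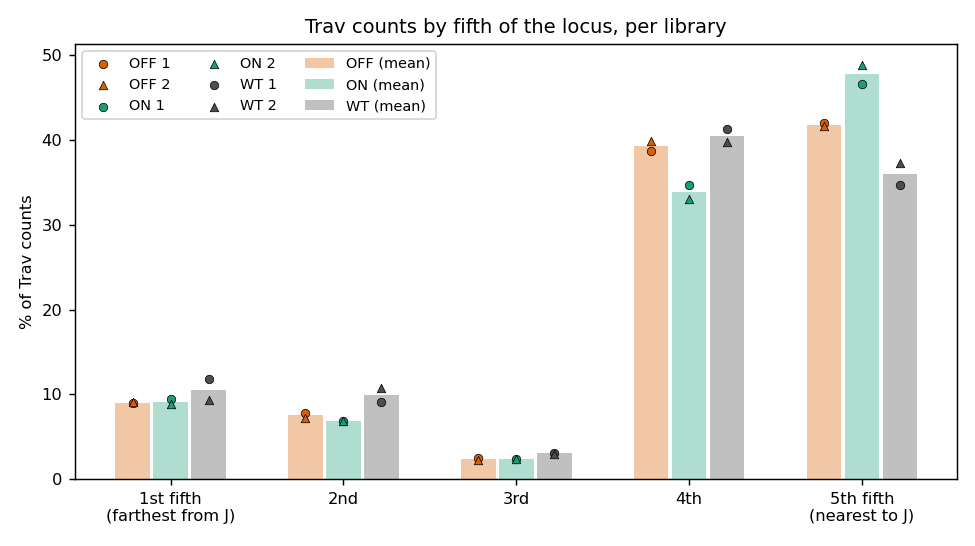
Percent of all Trav counts in 5 bins of 25 or 26 rows in locus order, OFF left of ON left of WT; bars are means of 2 libraries and points are the libraries. In the bin nearest the J segments ON lies at 46.5% and 48.8%, OFF at 41.9% and 41.6%, and WT at 34.7% and 37.2%.

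The order of the groups in the J-proximal bin did not rest on the row that stood apart. Without Trav5-4 the J-proximal bin held 71.8% and 73.5% in OFF, 74.7% and 74.6% in ON, and 66.5% and 68.1% in WT. Without the 3 rows that were called between ON and WT it held 69.9% and 71.6% in OFF, 71.4% and 72.9% in ON, and 65.2% and 66.3% in WT, where OFF and ON overlap and both stay above WT. Among the 45 rows with at least 75% of windows found in no other Trav transcript, it held 77.0% and 77.6% in OFF, 77.6% and 81.8% in ON, and 71.2% and 69.3% in WT. There, too, OFF and ON overlap, and both are above WT. These 3 ways of leaving rows out were chosen after seeing the data.

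J segments are the other side of the same join. Traj rows took 8327 and 4789 counts in OFF, 5739 and 6359 in ON, and 5758 and 7448 in WT. That is more than the Trav rows took in every library. Whether all these counts come from J segments joined to a V segment was not tested. The 20 Traj rows nearest the V segments, Traj61 to Traj42, held 8.20% and 7.58% of all Traj counts in OFF, 8.36% and 7.45% in ON, and 6.96% and 5.95% in WT. Both WT libraries were below the others, and OFF and ON overlapped. The next 20 rows, Traj41 to Traj22, held 36.3% and 34.6% in OFF, 35.1% and 31.7% in ON, and 34.7% and 34.4% in WT. The last 20 rows, Traj21 to Traj1, held 55.5% and 57.8% in OFF, 56.5% and 60.8% in ON, and 58.4% and 59.6% in WT. In the middle rows the 3 groups overlapped, and in the last rows both OFF libraries were below both WT libraries while ON overlapped OFF and WT. The counts are per row and do not record which J segment a V read was joined to.

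Between OFF and ON, the comparison of immature cells with Notch responses withdrawn or kept, no V segment passed the test. Of the 128 Trav rows 55 passed the filter on low counts and 0 were called (edgeR quasi-likelihood test, adjusted p under 0.05), where 1.03% of the 15780 tested genes were called, 0.602% as higher and 0.425% as lower in OFF. DESeq2 and limma-voom also called 0. At an unadjusted p under 0.05 there were 2 rows, or 3.64%, against 19.1% of all genes. The median log2 fold change was 0.08 over the 55 rows and 0.001 over all tested genes, with 31 rows above 0 and 24 below.

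Those 2 rows, chosen after their values were seen, lie close together at the J-proximal end and had differences of opposite sign. Trav21-dv12 was counted 83 and 63 times in OFF, 60 and 30 times in ON, and 32 and 24 times in WT. Its level was 4.79 and 3.79 CPM in OFF and 3.07 and 1.49 CPM in ON, with no overlap. The fitted log2 fold change for OFF against ON was 0.92 ± 0.37 (SE), with an edgeR adjusted p of 0.217. Trav13-4-dv7 was counted 31 and 26 times in OFF, 80 and 47 times in ON, and 25 and 34 times in WT. Its log2 fold change was -0.93 ± 0.38 (SE), with an edgeR adjusted p of 0.230. Neither passed the threshold.

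For 11 of the 55 tested rows both OFF libraries were above both ON libraries in CPM, and for 8 both were below. Of all tested genes 23.4% and 23.3% did so, so these counts of Trav rows are not above that background. The log2 fold change of Trav5-4 between OFF and ON was -0.58 ± 0.45 (SE), with an edgeR adjusted p of 0.522. It was -1.16 without ON 1, with an adjusted p of 0.0301, and 0.40 without ON 2, with an adjusted p of 0.516. Its direction was thus set by which ON library was used.

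Between ON and WT, 3 of the 55 tested V segments were higher in ON and none was lower, and all 3 lie in the bin nearest the J segments. This is 5.45% of the tested Trav rows, where 9.68% of all tested genes were called as higher and 5.16% as lower, 14.8% in all. The share of Trav rows called as higher is below that background. At an unadjusted p under 0.05 there were 7 rows (12.7%, against 30.5% of all genes), all higher in ON and all in the last of 5 bins. The groups did not overlap in CPM for 14 rows higher and 6 lower in ON, or 25.5% and 10.9% of the Trav rows, where all tested genes gave 29.8% and 30.0%.

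Trav19 had the largest change. It was counted 55 and 75 times in OFF, 89 and 160 times in ON, and 22 and 39 times in WT. Its level was 3.18 and 4.51 CPM in OFF, 4.55 and 7.93 CPM in ON, and 1.32 and 2.27 CPM in WT. All 4 RBPJind libraries were above both WT libraries, and OFF and ON nearly met. The log2 fold change for ON against WT was 1.79 ± 0.40 (SE), or 3.47-fold, with an edgeR adjusted p of 0.0173. No other Trav transcript shares a 75-base window with Trav19, and its sequence is the first printed above. The call was lost without ON 2, WT 1 or WT 2, in fits that also called fewer of all tested genes for ON against WT. Its log2 fold change ran from 1.36 to 2.26 without single libraries.

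Trav4-4-dv10 had the smallest p. It was counted 131 and 117 times in OFF, 190 and 179 times in ON, and 71 and 73 times in WT. Its level was 7.57 and 7.03 CPM in OFF, 9.71 and 8.87 CPM in ON, and 4.25 and 4.24 CPM in WT. None of the 3 groups overlapped on this segment. The log2 fold change for ON against WT was 1.13 ± 0.21 (SE), or 2.19-fold, with an edgeR adjusted p of 0.00918. That call was lost without WT 1 or without WT 2, while the log2 fold change stayed at 1.13 and 1.15. Both of these fits also called fewer of all tested genes. Its share of the Trav counts was 4.93% and 4.28% in OFF, 6.52% and 5.49% in ON, and 3.23% and 3.36% in WT.

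The change of Trav3-3 was the least firm of the 3. It was counted 80 and 111 times in OFF, 144 and 167 times in ON, and 68 and 74 times in WT. Its level was 4.62 and 6.67 CPM in OFF, 7.36 and 8.28 CPM in ON, and 4.07 and 4.30 CPM in WT, with no overlap between the groups in CPM. Its share of the Trav counts was 3.01% and 4.06% in OFF, 4.94% and 5.13% in ON, and 3.09% and 3.41% in WT. On that scale OFF and WT overlapped. The log2 fold change for ON against WT was 0.90 ± 0.25 (SE), or 1.87-fold, with an edgeR adjusted p of 0.0418. It was not called in 8 of 16 alternatives. Among these were limma-voom (adjusted p of 0.0504), upper-quartile scaling (edgeR adjusted p of 0.0544) and the Trav total as library size. So was each fit without an ON or a WT library. Together the 3 called rows held 10.02% and 11.1% of the Trav counts in OFF, 14.5% and 15.5% in ON, and 7.32% and 8.56% in WT.

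**Figure D3:**
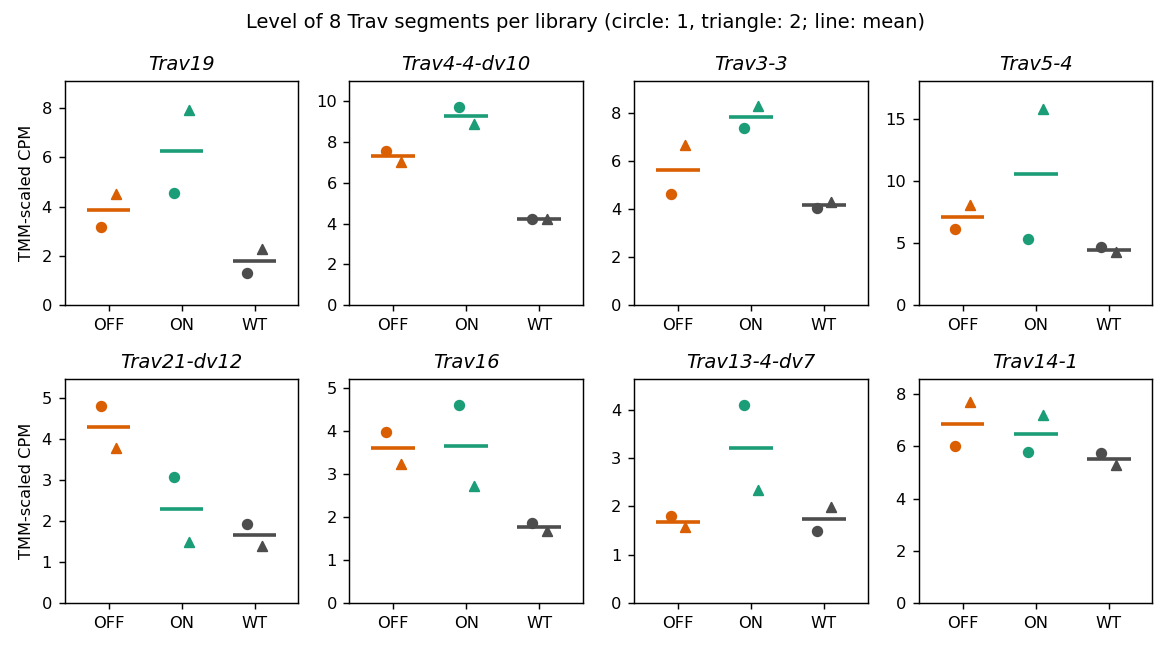
Level (TMM-scaled CPM) of 8 Trav segments, OFF left of ON left of WT; circles are replicate 1, triangles replicate 2 and lines the mean. Trav19, Trav4-4-dv10 and Trav3-3 passed the test between ON and WT, and Trav5-4 is high in ON 2 alone. Trav14-1 is shown as a large segment whose share of Trav counts overlapped between the groups. In CPM, as plotted, its WT libraries (5.74 and 5.29) lie below the others, by a small margin under ON 1 (5.78).

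The other 4 rows with an unadjusted p under 0.05 were Trav5-4, Trav16, Trav7-6 and Trav13-4-dv7, the last 3 named after their values were seen. Trav5-4 had a log2 fold change of 1.24 ± 0.48 (SE) for ON against WT and an edgeR adjusted p of 0.125. It was called by DESeq2 (adjusted p of 0.0242) and without ON 1 (log2 fold change 1.84, adjusted p of 0.00190), and had a log2 fold change of 0.27 with an adjusted p of 0.604 without ON 2. Trav16 was counted 69 and 54 times in OFF, 90 and 55 times in ON, and 31 and 29 times in WT, with a log2 fold change of 1.04 for ON against WT and an edgeR adjusted p of 0.0865. It was called without ON 2 (log2 fold change 1.40, adjusted p of 0.0270). Trav7-6 was counted 39 and 38 times in OFF, 55 and 42 times in ON, and 17 and 22 times in WT, with a log2 fold change of 1.08 and an edgeR adjusted p of 0.0825. For Trav16 and Trav7-6 all 4 RBPJind libraries were above both WT libraries.

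Set out along the locus, the fitted values for ON against WT were higher at the J-proximal end. In the last of 5 bins 18 rows were tested, with a median log2 fold change of 0.66, and 15 of them were above 0. In the 4th bin 19 rows were tested, with a median of -0.09, and 7 were above 0. Over all 55 rows the median was 0.13 with 32 above 0, and over all tested genes it was -0.02. With the Trav total as the library size the median of all genes moved to -0.29 and that of the Trav rows to -0.13, with 22 rows above 0, so the direction for the Trav rows as a whole depends on the scaling. Trav19 and Trav4-4-dv10 were still called on that scale.

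**Figure D4:**
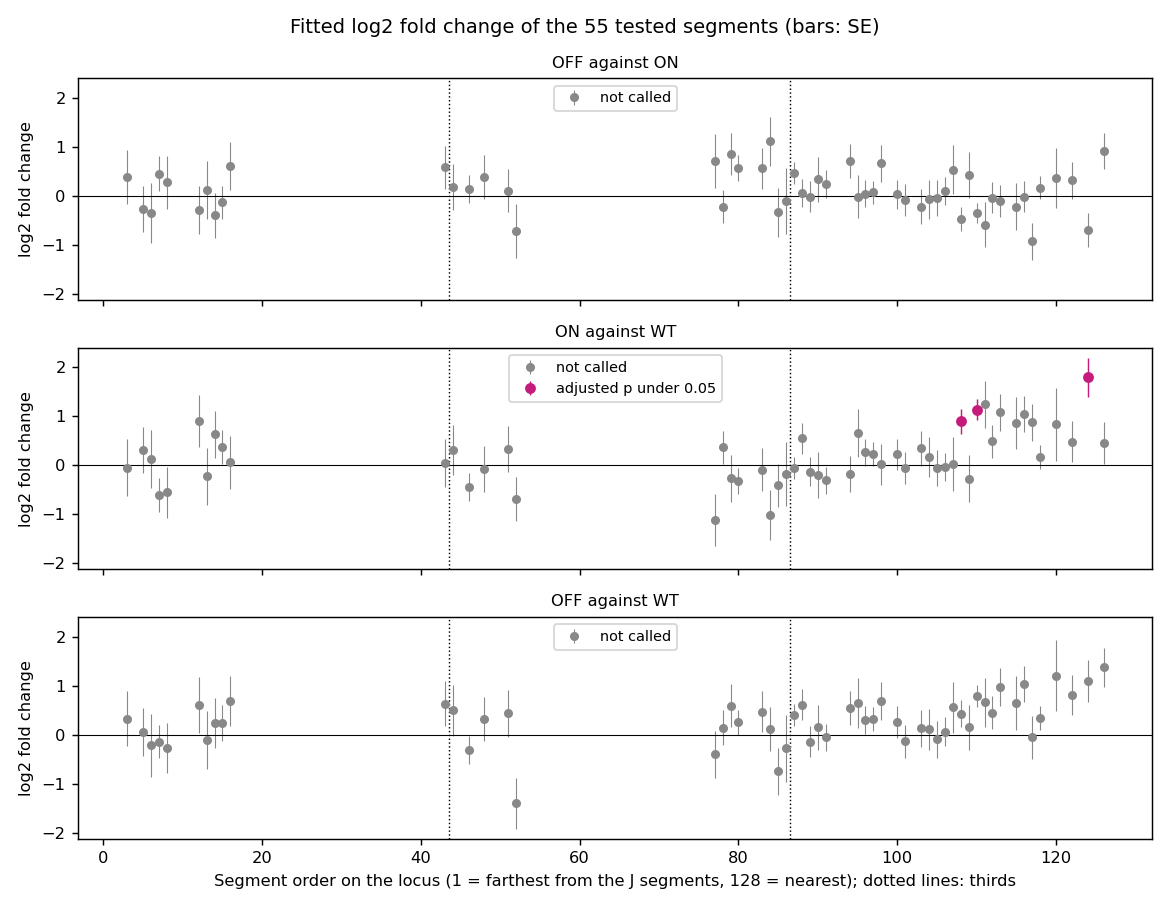
Fitted log2 fold change of the 55 tested rows in locus order for OFF against ON, ON against WT and OFF against WT, with the SE as bars; coloured points passed an adjusted p of 0.05. In ON against WT, 15 of the 18 tested rows in the last of 5 bins lie above 0 and the 3 called rows are among them; in OFF against WT, 16 of 18 lie above 0.

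Between OFF and WT, no V segment passed the test, although most of the tested rows had higher levels in OFF. The edgeR test called 0 of 55, where 4.70% of all genes were called as higher and 2.14% as lower, 6.83% in all; DESeq2 and limma-voom also called 0. At an unadjusted p under 0.05 there were 6 rows, or 10.9%, against 22.1% of all genes. The groups did not overlap in CPM for 31 of the 55 rows with OFF higher, or 56.4%, where 29.8% of all tested genes did so. With OFF lower there were 2 such rows, or 3.64%, against 25.8% of all genes. The median log2 fold change was 0.31 with 41 rows above 0, against 0.01 over all tested genes. With the Trav total as the library size, these medians were 0.01 and -0.29.

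Position showed in this comparison as well. In the last of 5 bins the median log2 fold change for OFF against WT was 0.60, and 16 of the 18 tested rows were above 0. The 4th bin had a median of 0.26, with 14 of 19 above 0. This comparison and that of ON with WT share both WT libraries, so their values are not independent.

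The smallest adjusted p between OFF and WT belonged to Trav4-4-dv10, with a log2 fold change of 0.78 ± 0.22 (SE) and an edgeR adjusted p of 0.0686. Trav21-dv12, at 4.79 and 3.79 CPM in OFF against 1.91 and 1.40 CPM in WT, had 1.38 ± 0.40 (SE) and an edgeR adjusted p of 0.0729. Trav19 had 1.09 ± 0.43 (SE) and an edgeR adjusted p of 0.175. Trav16 and Trav7-6 had log2 fold changes of 1.03 and 0.98, with edgeR adjusted p of 0.139 and 0.176. The row lower in OFF was Trav6n-6, chosen after its values were seen, with 8 and 7 counts in OFF, 14 and 15 in ON, and 23 and 17 in WT; its log2 fold change was -1.40 ± 0.52 (SE), with an edgeR adjusted p of 0.145. None of these 6 rows passed the threshold. Trav21-dv12 passed it with the 4 libraries compared alone and with a crossed block, with edgeR adjusted p of 0.0414 and 0.0315. The crossed block swaps the replicate numbers of OFF and was added after seeing the data. Both settings also called more of all tested genes, 1466 of 14822 and 2082 of 15780, where the main fit called 1078 of 15780. Without single libraries its log2 fold change ran from 1.19 to 1.63. Trav4-4-dv10 passed it with the crossed block, with an edgeR adjusted p of 0.0388. Without single libraries the log2 fold change of Trav4-4-dv10 ran from 0.76 to 0.83.

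Copies of the locus differed in how often they were counted. The 55 rows without a copy letter held 79.8% and 82.1% of the Trav counts in OFF, 82.2% and 83.3% in ON, and 77.3% and 77.9% in WT. The 39 d copies held 10.4% and 9.98% in OFF, 10.3% and 9.76% in ON, and 12.4% and 12.0% in WT. The 34 n copies held 9.76% and 7.93% in OFF, 7.51% and 6.97% in ON, and 10.3% and 10.1% in WT. Both kinds of copy had a larger share in each WT library than in any OFF or ON library. Copy letter and position go together, so this is not separate from the shares by position. All 25 rows of the last of 5 bins have no copy letter, and bins 2 and 3 hold only d and n copies. Of the 23 rows with no count, 7 were d copies, 13 n copies and 3 had no letter.

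Rows with little sequence of their own had few counts. Each annotated Trav transcript was cut into all its 75-base windows, and those found in no other Trav transcript were counted. The read length is not given in the sources used here, and windows of 50 and 100 bases left 39 and 38 rows without a window of their own. At 75 bases there were 39 such rows; 19 of them had no count and 38 had at most 10, with Trav3d-3 highest at 42. The 45 rows with at least 75% of their windows unique had a median of 94 counts over the 6 libraries and held 55.1% of all Trav counts. Between 13.3% and 14.98% of the reads in the table stood in its row for alignments that were not unique, and whether reads of Trav copies are among them was not tested. The levels of d and n copies, and of the segments they copy, are uncertain for that reason, and strand use is not given either.

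**Figure D5:**
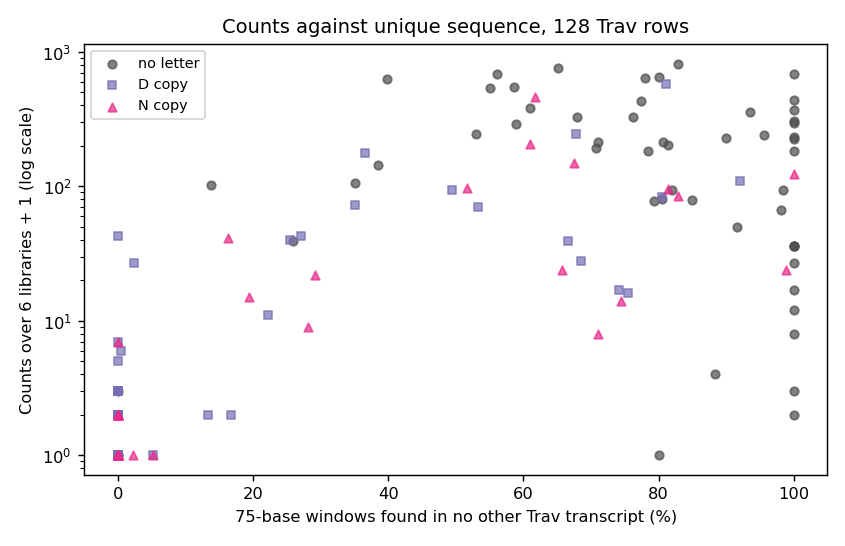
Counts over 6 libraries plus 1 (log scale) against the percent of 75-base windows found in no other Trav transcript, for 128 rows; circles have no copy letter, squares are d copies and triangles n copies. Of the 39 rows at 0%, 38 have at most 10 counts.

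Trav11 is the V segment of the invariant chain of natural killer T cells, which recognise lipids on CD1d. It had 0 counts in all 6 libraries. Trav11d had 2 counts, both in ON 1. The 2 rows are identical over 342 coding bases, so neither count is firm, and the 0 does not show that the segment was absent. Trav11n, annotated as a pseudogene, differs from Trav11 at 8 of 343 positions and had 2 and 0 counts in OFF, 4 and 11 in ON, and 4 and 2 in WT. Coding bases 223 to 342 of Trav11 (chr14:53519303-53519859) and Trav11n (chr14:53135122-53135678) are given to show how few bases tell them apart; capitals mark those of Trav11n that differ.
Trav11: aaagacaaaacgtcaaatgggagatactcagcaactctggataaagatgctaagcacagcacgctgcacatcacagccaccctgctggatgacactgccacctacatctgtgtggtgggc
Trav11n: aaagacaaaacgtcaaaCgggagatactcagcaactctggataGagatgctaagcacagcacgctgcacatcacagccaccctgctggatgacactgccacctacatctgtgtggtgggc

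Trav1, the row farthest from the J segments, encodes the V part of the invariant chain of mucosal-associated invariant T cells. It had 5 and 5 counts in OFF, 7 and 10 in ON, and 4 and 4 in WT, or 0.188% and 0.183%, 0.240% and 0.307%, and 0.182% and 0.184% of the Trav counts. Both ON libraries had the most, and the 95% Clopper-Pearson intervals of all 6 overlap, from 0.0496% to 0.465% in WT 1 and from 0.147% to 0.564% in ON 2. Trav23, the row nearest the J segments, had 1 and 0 counts in OFF, 2 and 0 in ON, and 1 and 3 in WT.

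Segments that can also be joined in delta chains mix the 2 receptors. The 10 rows with a -dv suffix, among them Trav4-4-dv10 and Trav21-dv12, held 19.1% and 16.1% of the Trav counts in OFF, 19.7% and 15.6% in ON, and 13.7% and 18.0% in WT, with all groups overlapping. Trdc, the delta constant region, was at 8.38 and 10.4 CPM in OFF, 10.3 and 7.53 CPM in ON, and 5.02 and 3.84 CPM in WT, and was higher in both RBPJind groups than in WT (edgeR adjusted p of 0.0403 for OFF and 0.0309 for ON). The summed level of 6 gamma delta T cell markers was 13.7 and 17.8 CPM in OFF, 26.5 and 14.9 CPM in ON, and 8.19 and 5.87 CPM in WT. Of the 5 tested, 1 was called higher against WT in OFF and 3 in ON. Of all tested genes 4.70% were called higher in OFF and 9.68% in ON. Alpha and delta transcripts of a -dv row cannot be told apart in these counts.

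The 20 pseudogene rows held 1.77% and 2.49% of the Trav counts in OFF, 2.06% and 3.74% in ON, and 2.09% and 2.99% in WT. Of their 408 counts 202 belonged to Trav8-2, with 23 and 44 in OFF, 28 and 64 in ON, and 16 and 27 in WT. The annotation calls it a pseudogene, and it was counted more often than many functional rows. Of the pseudogenes 7 had no count, and of the functional rows 16.

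Other parts of the receptor were tested in the same fit. Of all tested genes 1.03% were called for OFF against ON, 14.8% for ON against WT and 6.83% for OFF against WT. Of 35 beta V rows 20 were tested and 0 were called in any comparison. Of 60 Traj rows 55 were tested; 0 were called for OFF against ON, 1 was lower for ON against WT, and 0 were called for OFF against WT. The 4 receptor chains Cd3d, Cd3e, Cd3g and Cd247, which carry the signal of the receptor, were not called in any comparison. The 12 genes of V(D)J recombination and end joining had 10 tested members, of which 1 was lower for OFF against ON (Hmgb2), 2 were higher (Hmgb1 and Hmgb2) and 1 lower (Prkdc) for ON against WT, and 1 was higher for OFF against WT (Hmgb2). Hmgb1 and Hmgb2 encode abundant DNA-bending proteins that also act outside recombination. Rag1 and Rag2, which encode the recombinase, were at or under 0.562 and 0.347 CPM in every library and did not pass the filter.

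Some markers of other cells were called in the contrasts against WT. Of all tested genes 9.68% were called higher and 5.16% lower for ON against WT. For OFF against WT these were 4.70% and 2.14%. The 3 regulatory T cell markers Foxp3, Il2ra and Ikzf2 summed to 169 and 326 CPM in OFF, 174 and 111 CPM in ON, and 14.8 and 13.95 CPM in WT, and 3 of 3 were called higher against WT in OFF and in ON; all samples were gated as CD25-, the protein encoded by Il2ra. The 5 B cell markers summed to 16.9 and 27.4 CPM in OFF, 13.0 and 11.1 CPM in ON, and 3.89 and 3.84 CPM in WT, with 5 called higher in OFF and 3 in ON. The 4 myeloid markers summed to 23.5 and 37.9 CPM in OFF, 24.2 and 22.5 CPM in ON, and 11.8 and 12.2 CPM in WT, with 1 called higher in OFF and 2 in ON. The 6 markers of innate-like T cells summed to 38.6 and 46.8 CPM in OFF, 45.2 and 34.1 CPM in ON, and 28.3 and 28.6 CPM in WT, with 1 called higher in OFF, and 1 higher and 1 lower in ON. Slamf1 made up most of these sums, at 20.6 to 32.8 CPM over the 6 libraries. The marker called higher was Cd160 in both groups. Zbtb16, which defines innate-like T cells, was the marker called lower in ON. It was at 1.56 and 1.80 CPM in OFF, 0.307 and 0.743 CPM in ON, and 2.57 and 2.27 CPM in WT. The 2 CD8 T cell markers summed to 14.2 and 18.0 CPM in OFF, 18.1 and 23.7 CPM in ON, and 14.4 and 13.8 CPM in WT. Cd8a was called higher against WT in OFF and in ON, and Cd8b1 was called in neither. The 3 erythroid markers summed to at most 1.56 CPM in every library. The part of these cells in the V segment values against WT was not tested.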

How the data were processed

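The values are raw counts per gene as deposited by the authors, whole numbers with no normalization. Per the labels' protocols, total RNA of sorted spleen cells was sequenced on a NovaSeq instrument, with GRCm38 as the genome. R 3.6.2 and edgeR stand in the submitters' processing notes. Not given in the sources used here are the read length, the annotation, strand use, and the programs that aligned and counted the reads. The 5 summary rows, which name no gene and held 53.1% to 66.3% of the reads, were left out of library sizes and tests.

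Of 47729 identifiers 47310 matched GENCODE M21. Counts were tested with edgeR 4.0.16 in R 4.3.3: filterByExpr (minimum count 10, minimum total 15), TMM scaling, and a robust quasi-likelihood fit of all 6 libraries in 3 groups. P-values were adjusted by Benjamini-Hochberg over 15780 genes and called under 0.05; the biological coefficient of variation was 15.7%. SE is the log2 fold change divided by the root of F. Shares are of all Trav counts in a library. The steps were tested on simulated counts. Alternatives used DESeq2 1.42.0, limma 3.58.1, other scalings and filters, a replicate block and fits without each library; with 1 library left in a group, it is assumed to vary like the others.

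Segments were named by a rule: the 10 largest mean shares, called rows, Trav11, Trav11d, Trav1, both ends of the locus, and their d and n copies. Other rows that the text names, Trav2 among them, fall outside this rule. Members and lists were chosen with earlier results of these data known.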

Additional observations from a re-analysis of the deposited data

How the results depend on the processing

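With the total Trav share taken of alpha chain counts in place of gene counts, the log2 ratio was -0.31 for OFF against ON (-0.07 as reported), 0.40 for ON against WT (0.33) and 0.10 for OFF against WT (0.26). The effective number of segments reversed under subfamily sums, with log2 ratios of -0.0271 for OFF against ON (0.10 as reported), 0.0871 for ON against WT (-0.17) and 0.0600 for OFF against WT (-0.07). For the J-proximal share, the last of 5 bins in place of 3 gave -5.93 percentage points for OFF against ON (-2.49 as reported) and 11.7 for ON against WT (7.87), or -4.86 and 10.2 without Trav5-4; leaving out the 3 called rows gave 6.41 for ON against WT, and rows with at least 75% of windows unique gave 9.46 for ON against WT and 7.09 for OFF against WT (5.38). The number of called segments for OFF against WT (0 as reported) was 1 with the 4 libraries compared alone (Trav21-dv12). No pairing of samples by replicate number was seen (correlations of deviations -0.20 for OFF with ON, 0.08 for ON with WT and -0.21 for OFF with WT). A replicate block gave 0 for OFF against ON, 2 for ON against WT (Trav3-3 was not called) and 0 for OFF against WT. A crossed block, added after seeing the data, gave 2 for OFF against WT (Trav21-dv12 and Trav4-4-dv10) and 0 for OFF against ON. Without single libraries the number ran from 0 to 1 for OFF against ON (Trav5-4 without ON 1), 0 to 3 for ON against WT (0 without WT 1 and 0 without WT 2) and 0 to 2 for OFF against WT (Trav21-dv12 and Trav4-4-dv10 without ON 1, and Trav21-dv12 without ON 2). The fits without a WT library also called fewer of all tested genes for ON against WT than the main fit. The cause of these differences was not tested. Leaving out single libraries kept the direction of the 3 measures over all Trav rows in each comparison. The other alternatives kept the number of called segments within 1.5 times. For single named segments under an alternative, 779 values kept their side of the threshold, and their sign where called, 13 lost a call and 5 gained a call. These numbers cover only the segments named by the rule, so the gained calls of Trav21-dv12 and Trav16 are not among them. Depth limits single segments: 55 Trav rows passed the filter on low counts, and the 10 largest had 535 to 816 counts over 6 libraries.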
